A study of Homo sapiens with 18 samples.

Results

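The comparison of A375 melanoma cells overexpressing MAFG with A375 cells overexpressing GFP rests on 6 of the 18 RNA-seq libraries of the study, 3 for each condition, which were taken by the cell line and the treatment that their labels give. The study asked how MAFG changes gene expression in human melanoma cells, and the other 12 libraries hold the same comparison in WM164 and SKMel28 cells. Both A375 populations had been transduced with a lentiviral vector in which the EF1α promoter drives the inserted open reading frame, selected with blasticidin and grown in the same medium. The control vector carried GFP, and in the other vector GFP had been replaced by a Myc-DDK-tagged MAFG open reading frame. No source used here says whether the 3 libraries of a condition came from separate transductions or cultures, so the p-values below measure the spread between these libraries, which may be technical. The change of MAFG is therefore forced, constitutive and in cells of a single established line.

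MAFG belongs to the small MAF proteins, which bind DNA through a basic leucine zipper but carry no transactivation domain of their own. They form homodimers, or heterodimers with CNC proteins such as NRF2 (encoded by NFE2L2) and with BACH proteins, and the partner decides whether a target gene is activated or repressed. A375 is a BRAF-mutant melanoma line of the dedifferentiated kind, with low MITF, the master regulator of the melanocyte lineage, and high AXL, a receptor tyrosine kinase.

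The 6 libraries held 32979834 to 39025042 counts each. Levels are given as CPM, a gene count scaled to a common library size after adjusting the library sizes by edgeR's TMM method over the 6 libraries, and a log2 fold change is that of MAFG against GFP with its standard error (SE). The labelled line was checked against marker genes. AXL was at 683, 687 and 739 CPM in the GFP libraries and at 731, 612 and 617 CPM in the MAFG libraries, while the pigment cell genes MLANA and TYR had no count in any of the 6 libraries, where a count of 0 allows up to 3 counts, or 0.0933 CPM in the shallowest library. PTPRC and CD3E (leukocytes), KRT1, TP63 and DSG3 (keratinocytes) and CLDN5 (endothelium) were at 0 as well. Other markers of these cell types were not at 0. KRT10 (keratinocytes) was at 61.4 to 77.5 CPM, CD68 (leukocytes) at 44.9 to 66.5 CPM and TEK (endothelium) at 0.298 to 0.868 CPM over the 6 libraries.

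The overexpressed gene was measured first. MAFG (ENSG00000197063.11), which GRCh38 places on chromosome 17 from 81918270 to 81927735, was at 26.3, 27.3 and 36.5 CPM in the GFP libraries and at 60.3, 53.8 and 42.8 CPM in the MAFG libraries. All MAFG libraries lay above all GFP libraries, although the third library of each condition approached the other condition. The log2 fold change was 0.80 (SE 0.17), and its adjusted p of 0.0655 (edgeR's quasi-likelihood test, Benjamini-Hochberg over all tested genes) missed the threshold of 0.05. DESeq2 gave 0.80 with an adjusted p of 0.00078, and edgeR gave 0.0247 without MAFG library 1 and 0.0442 without MAFG library 3. Its adjusted p was 0.321, 0.392 and 0.0648 without GFP libraries 1, 2 and 3, and 0.282 without MAFG library 2. In the deposited TPM values the separation was wider, with 4.2, 3.94 and 4.52 TPM in the GFP libraries and 22.4, 25.1 and 28.2 TPM in the MAFG libraries, a log2 fold change of 2.33 on the log2(TPM + 1) scale (adjusted p = 0.000643, limma). SIRT7 lies over part of MAFG on the same strand, and the effect of that overlap on either scale was not tested. The order of the MAFG libraries was not the same on the 2 scales.

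Of 15779 tested genes, 105 were called, meaning that the adjusted p did not exceed 0.05 and the level changed by more than 2-fold, which is 0.665% of the genes tested. Among the called genes the response was almost wholly upward, with 102 genes higher (0.646%) and 3 lower (0.019%) with MAFG. Without the limit on the fold change, 123 genes were higher (0.78%) and 10 lower (0.0634%). At an unadjusted p under 0.05, which takes in the genes just counted, the tilt was weaker, with 670 genes higher and 317 lower. Without MAFG library 1, 307 genes were higher and 86 lower at an adjusted p of 0.05 (edgeR). At an unadjusted p under 0.05, 1288 of 2718 genes were then lower, a nearly even split. Leaving out any other library gave 219 to 310 lower of 783 to 909. Voom with sample weights (limma) gave 260 higher and 65 lower at the adjusted threshold. It gave 1078 lower of 2391 at the unadjusted one. On the TPM scales that tilt was reversed, with 370 of 541 such genes lower on log2(TPM + 1), 361 of 525 on log2(TPM + 0.1) and 688 of 1170 on log2(TPM + 1) without a filter, scales on which the median of all genes also moved. In the edgeR fit the median log2 fold change over all tested genes was 0.00. The CPM values of the conditions did not overlap for 12.8% of all tested genes and for each of the 105 called genes. Protein-coding genes made up 102 of the 105. A bulk library cannot tell a change in RNA per cell from a change in the share of cells that make it.

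Most genes that rose started from little or nothing. Of the 102 genes called higher, 54 (52.9%) had a mean below 1 CPM in the GFP libraries, against 16.3% of all tested genes, 38 lay between 1 and 10 CPM, and 10 at 10 CPM or more. The GFP libraries held no count at all for 18 of them. Even with MAFG, 34 reached a mean of 10 CPM and 3 reached 100 CPM. The median log2 fold change of the 102 was 2.74, and it stayed at 2.74 when the 18 genes without a count in GFP cells were set to the lower bound of their change. These sets were defined by the change itself, so the starting levels describe them and were not tested. The filter on low counts also bears on the shares of 52.9% and 16.3%. It kept the 18 genes without a count in GFP cells only through their counts with MAFG. Genes low in both conditions were removed before the test.

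**Figure D1:**
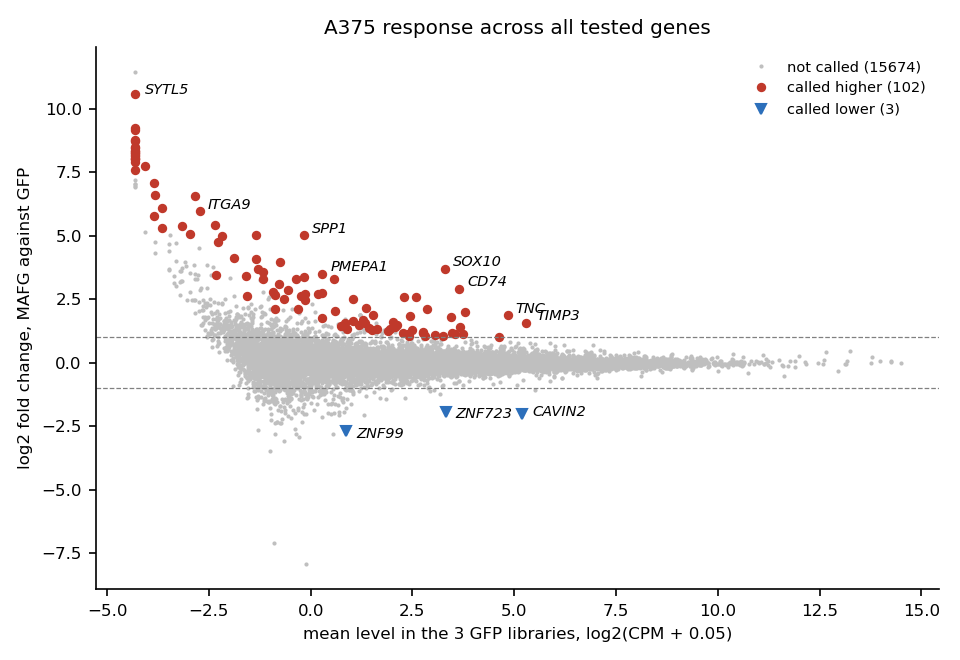
Log2 fold change of MAFG against GFP (y axis) by the mean level in the 3 GFP libraries (x axis, log2 of CPM + 0.05) for the 15779 tested genes, with dashed lines at a 2-fold change. The 102 genes called higher (red) gather at the left, where GFP levels are low, and the 3 genes called lower (blue triangles) are CAVIN2, ZNF723 and ZNF99.

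Genes of the neural crest were among those that rose. The neural crest gives rise to melanocytes, and dedifferentiated melanoma cells re-express its regulators. Of 17 tested genes in a list of Neural Crest-like state genes, 6 rose at an adjusted p of 0.05, 5 of them by more than 2-fold (SOX10, NES, TFAP2B, RXRG and ERBB3), none fell, and the median log2 fold change was 0.95. Over all tested genes 0.78% rose at that threshold and 0.646% by more than 2-fold as well. The list was drawn up with results of these data known, as were the lists below.

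SOX10 (ENSG00000100146.17, chromosome 22 from 37970686 to 37987422), the transcription factor that specifies neural crest and melanocyte precursors, was at 7.69, 9.03 and 12.8 CPM in the GFP libraries and at 152, 115 and 111 CPM in the MAFG libraries. Its log2 fold change was 3.68 (SE 0.21, adjusted p = 2.12e-05), which is 12.8-fold by the mean CPM, and the lowest MAFG library lay far above the highest GFP library. POLR2F, which overlaps SOX10 on the opposite strand, changed by 0.05 on the log2 scale (adjusted p = 0.997). ERBB3, a neuregulin receptor of the neural crest lineage, went from 4.95, 5.72 and 3.92 CPM to 29.7, 31.8 and 25.9 CPM, a log2 fold change of 2.58 (SE 0.17, adjusted p = 4.75e-05). NES, the intermediate filament nestin of neural progenitors, was at 11.1, 11.1 and 10.5 CPM with GFP and at 41.0, 34.5 and 37.5 CPM with MAFG, a log2 fold change of 1.79 (SE 0.12, adjusted p = 4.98e-05). The GFP libraries were almost level for NES, and the gap to the MAFG libraries was several times their spread.

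RXRG, a retinoid receptor used as a marker of the neural crest state, and TFAP2B, an AP-2 factor of neural crest development, were near the detection limit in control cells. RXRG had 0, 0 and 6 counts in the GFP libraries and 98, 75 and 123 counts in the MAFG libraries (adjusted p = 0.017). It lost its call without GFP library 1 or 2 or MAFG library 2 or 3, with adjusted p of 0.0558 to 0.0726. TFAP2B had no count with GFP and 65, 80 and 77 counts with MAFG, at least 22.8-fold higher when the GFP libraries are set to 3 counts each (adjusted p = 0.00318). A further list member, CADM1, an adhesion molecule, rose by less than 2-fold, from 8.04, 5.63 and 6.62 CPM to 11.7, 13.7 and 13.7 CPM (adjusted p = 0.0365).

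Not all genes of the lineage were called higher. NGFR, the low-affinity nerve growth factor receptor and a defining gene of the same list, was at 1.62, 1.72 and 2.39 CPM with GFP and at 1.27, 1.28 and 0.788 CPM with MAFG (log2 fold change -0.78, adjusted p = 0.887). Its MAFG libraries all lay below its GFP libraries. SOX9 was at 48.4, 46.9 and 47.0 CPM and at 79.4, 61.2 and 68.4 CPM, with no overlap of the libraries but an adjusted p of 0.076. SOX2, with 0, 8 and 4 counts against 62, 88 and 39 counts, had a log2 fold change of 3.83 without overlap and an adjusted p of 0.0967. MIA, a secreted protein of melanoma and cartilage, was called with 0.781, 0.572 and 0.839 CPM against 7.53, 7.71 and 6.36 CPM (adjusted p = 0.000117), whereas the melanoma markers S100B and S100A1 had adjusted p of 0.0998 and 0.353. Over the 7 melanoma marker genes checked, the summed level was 180.1 to 199 CPM in the GFP libraries and 299.98 to 344 CPM in the MAFG libraries. SOX10 carried most of this gap, since the other 6 genes summed to 171 to 186 CPM with GFP and 185 to 191 CPM with MAFG, ranges that overlap.

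**Figure D2:**
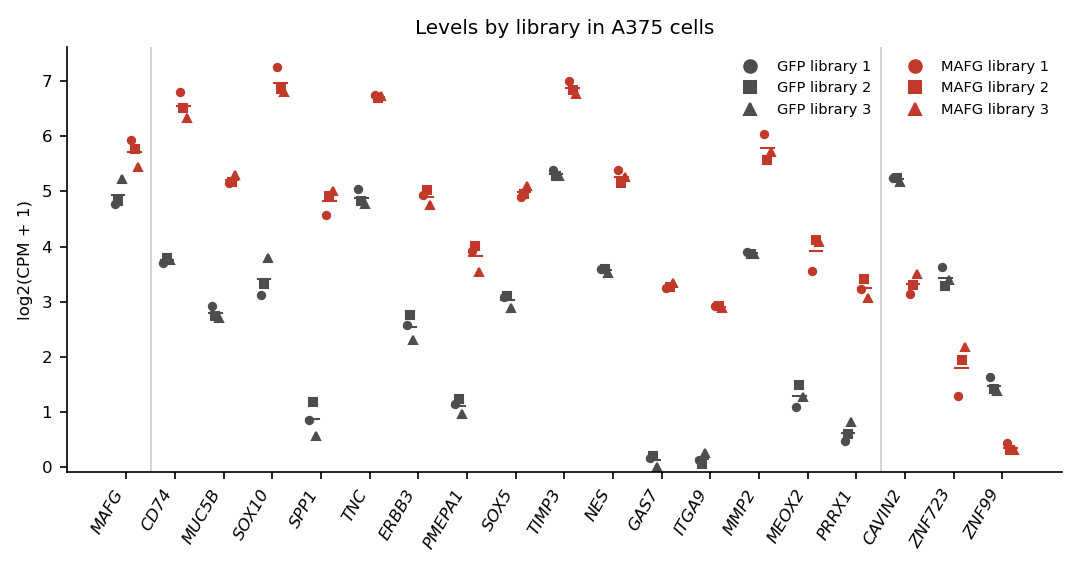
Level of each gene, as log2(CPM + 1), in the 3 GFP libraries (grey) and the 3 MAFG libraries (red) of A375 cells, with a line at each mean, for MAFG, the 15 genes called higher with the smallest adjusted p and the 3 genes called lower. The conditions do not overlap for any gene shown, and for MAFG itself the highest GFP library (36.5 CPM) and the lowest MAFG library (42.8 CPM) are close.

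Genes of the extracellular matrix and of its turnover formed a further group. In the Mesenchymal-like state list, 4 of 23 tested genes rose (TNC, FN1, IGFBP5 and, by less than 2-fold, SERPINE2), none fell, and the median log2 fold change was 0.09. In a list of other collagens and matrix proteins, 3 of 25 rose (SPP1, COL9A3 and, by less than 2-fold, LAMA4), with a median of 0.20. Among matrix proteases and their inhibitors, 4 of 20 rose (MMP2, TIMP3, A2M and, by less than 2-fold, PLAT), with a median of 0.63. Each of these lists thus held a few rising members, against 0.78% of all tested genes, among many that did not pass the test.

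TNC, the matrix glycoprotein tenascin-C, was at 31.9, 27.3 and 26.3 CPM in the GFP libraries and at 106, 103 and 106 CPM in the MAFG libraries (log2 fold change 1.88, SE 0.11, adjusted p = 2.92e-05). Its MAFG values were nearly equal. FN1, fibronectin, was at 11.1 CPM in each GFP library and at 25.8, 24.5 and 24.9 CPM in the MAFG libraries, a log2 fold change of 1.17 (SE 0.12, adjusted p = 0.000814). IGFBP5, a secreted binder of insulin-like growth factors, went from 9.75, 8.49 and 10.4 CPM to 22.4, 19.2 and 17.4 CPM, and its adjusted p of 0.00898 became 0.0587 without GFP library 1, 0.0781 without GFP library 2 and 0.0564 without MAFG library 2.

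SPP1 (ENSG00000118785.14), which encodes the secreted phosphoprotein osteopontin, was at 0.810, 1.26 and 0.466 CPM with GFP and at 22.8, 29.4 and 31.2 CPM with MAFG, a log2 fold change of 5.03 (SE 0.28, adjusted p = 2.12e-05). COL9A3, a collagen IX chain, was at 1.62, 4.28 and 2.58 CPM and at 10.3, 10.1 and 10.7 CPM (adjusted p = 0.017), and its GFP libraries were uneven. The adjusted p of COL9A3 was 0.119 without GFP library 3 and 0.0808 without MAFG library 2. COL19A1, a collagen chain with 2, 0 and 0 counts in GFP cells, had 90, 120 and 131 counts in MAFG cells (adjusted p = 0.000956), and HMCN1, a large matrix fibulin, had 15, 0 and 0 against 186, 238 and 295 (adjusted p = 0.00913, or 0.0644 without MAFG library 2 and 0.199 with DESeq2).

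A protease and its inhibitors were among them. MMP2, a gelatinase, was at 13.97, 13.6 and 13.6 CPM with GFP and at 65.3, 46.4 and 51.9 CPM with MAFG, a log2 fold change of 1.99 (SE 0.14, adjusted p = 6.65e-05). TIMP3, a matrix-bound inhibitor of metalloproteinases, was at 40.7, 38.1 and 38.0 CPM and at 127, 114 and 108 CPM, a log2 fold change of 1.58 (SE 0.11, adjusted p = 4.98e-05). For both genes MAFG library 1 was the highest and the GFP libraries were close to each other. A2M, a broad protease inhibitor, had no count in GFP cells and 88, 35 and 50 counts in MAFG cells, at least 17.5-fold higher (adjusted p = 0.011). THBS2, the matricellular thrombospondin-2, also went from no count to 82, 62 and 95 counts, at least 24.3-fold higher (adjusted p = 0.00258).

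Of 18 tested genes for integrin subunits, which form cell surface receptors for such matrix proteins, 3 rose by more than 2-fold (ITGA9, ITGB3 and ITGB8) and none fell at an adjusted p of 0.05, with a median log2 fold change of 0.30. Of all tested genes, 0.646% were called higher. The integrin tally was made after the values were seen. ITGA9, whose integrin binds tenascin-C and osteopontin, had 3, 1 and 6 counts in the GFP libraries and 241, 221 and 244 counts in the MAFG libraries, which is 0.0868, 0.0301 and 0.187 CPM against 6.52, 6.58 and 6.41 CPM (log2 fold change 5.97, SE 0.43, adjusted p = 6.43e-05). ITGB3, the beta-3 integrin subunit, had 0, 23 and 11 counts against 485, 403 and 335 (adjusted p = 0.0026). ITGB8, a further beta subunit, was at 4.16, 3.85 and 4.51 CPM and at 8.12, 13.03 and 12.01 CPM (adjusted p = 0.0112). NF-E2 is a CNC partner of the small MAF proteins. ITGB3 was the 1 called gene among 5 tested members of a list of its platelet and erythroid targets, against 0.665% of all tested genes. NFE2 itself was at 0.0868 to 0.512 CPM with GFP and at 0.623 to 1.31 CPM with MAFG, with an adjusted p of 0.887.

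Within the MHC class II pathway, which presents peptides to helper T cells, the 3 genes CIITA, CD74 and HLA-DRA rose. CIITA is the transactivator of the class II genes, HLA-DRA encodes the class II alpha chain, and CD74 is the invariant chain that escorts class II molecules. CD74 (ENSG00000019582.15, chromosome 5 from 150401637 to 150412969), one of the genes with the smallest adjusted p, was at 12.001, 12.8 and 12.6 CPM in the GFP libraries and at 111, 90.6 and 79.9 CPM in the MAFG libraries (log2 fold change 2.91, SE 0.14, adjusted p = 1.61e-05). CIITA was at 0.578, 0.422 and 0.435 CPM and at 2.49, 3.72 and 3.71 CPM (log2 fold change 2.78, adjusted p = 0.0054). In the deposited TPM values the conditions overlapped for CIITA, with 0.16, 0.24 and 0.67 TPM against 0.86, 0.29 and 0.46 TPM. On log2(TPM + 1) without a filter its log2 fold change was 0.18 (adjusted p = 0.873, limma), so the rise of CIITA rests on the counts. HLA-DRA was at 0.347, 0.753 and 0.497 CPM and at 4.98, 4.28 and 4.36 CPM (log2 fold change 3.09, adjusted p = 0.00185). The other genes of the antigen presentation list did not pass the test, with 3 of 17 tested genes higher, none lower and a median log2 fold change of 0.20. Of all tested genes, 0.78% were higher at an adjusted p of 0.05. None of 19 tested interferon response genes passed at an adjusted p of 0.05 (median 0.11).

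Several genes that rose encode transcription factors or secreted regulators outside these groups. SOX5, a SOX factor of the cartilage and melanocyte lineages, was at 7.52, 7.62 and 6.34 CPM with GFP and at 28.8, 30.1 and 33.1 CPM with MAFG (log2 fold change 2.10, SE 0.14, adjusted p = 4.75e-05). PRRX1, a homeobox factor of mesenchyme, was at 0.376, 0.512 and 0.746 CPM and at 8.39, 9.67 and 7.41 CPM (adjusted p = 7.94e-05). MEOX2, a homeobox factor of mesoderm, was at 1.13, 1.81 and 1.40 CPM and at 10.8, 16.3 and 15.9 CPM (adjusted p = 7.94e-05). The ranges of the conditions were far apart for each of these factors.

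Among factors close to MAFG by family, MAF, a large MAF protein with a transactivation domain, had 8, 1 and 13 counts in the GFP libraries and 187, 123 and 121 counts in the MAFG libraries (adjusted p = 0.00837, or 0.0522 without GFP library 1). It was the 1 gene past the test among 13 tested large MAF and AP-1 factors, against 0.78% of all tested genes higher. EGR3, an immediate early factor, had 8, 6 and 2 counts against 199, 131 and 152 (adjusted p = 0.000473). EGR3 and, by less than 2-fold, the MAPK feedback gene SPRY4 were the 2 of 17 tested immediate early and MAPK feedback genes that rose (median 0.09). The share over all tested genes was 0.78%. EHF, an epithelial ETS factor, went from 0, 1 and 0 counts to 69, 117 and 127 counts (adjusted p = 0.000783).

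Signalling genes and others were also called higher. PMEPA1, a feedback inhibitor of TGF-beta signalling, was at 1.21, 1.36 and 0.933 CPM in the GFP libraries and at 14.2, 15.1 and 10.6 CPM in the MAFG libraries (log2 fold change 3.51, SE 0.23, adjusted p = 4.75e-05), while none of 19 genes in a list of the TGF-beta pathway passed the test. SFRP1, a secreted WNT antagonist, was at 12.5, 11.3 and 11.4 CPM and at 26.5, 24.0 and 26.7 CPM (log2 fold change 1.14, adjusted p = 0.00141). It was the 1 of 16 tested WNT and Hedgehog genes past the test, against 0.78% of all tested genes higher. MUC5B, a gel-forming mucin of airway epithelium, was at 6.59, 5.69 and 5.47 CPM and at 34.8, 35.0 and 38.4 CPM (log2 fold change 2.61, SE 0.13, adjusted p = 1.61e-05). The conditions did not overlap in CPM for any of these 3 genes, and PMEPA1 was lower in MAFG library 3 than in the other MAFG libraries. On log2(TPM + 1) limma gave adjusted p of 0.0482 for PMEPA1, 0.455 for SFRP1 and 0.165 for MUC5B. With log2(TPM + 0.1) all 3 missed the threshold.

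Further genes appeared from near silence. GAS7, a growth arrest-specific gene of neurite formation, had 4, 5 and 0 counts with GFP and 314, 289 and 349 counts with MAFG (adjusted p = 6.43e-05). SYTL5 (ENSG00000147041.12, chromosome X from 38006553 to 38128819), a synaptotagmin-like protein of vesicle trafficking, had no count with GFP and 149, 230 and 208 counts with MAFG, at least 60.4-fold higher (adjusted p = 0.000216). The growth factor gene PTN (pleiotrophin) had 0, 1 and 1 counts against 50, 59 and 146 (adjusted p = 0.0035), and C10orf90 had 3, 0 and 0 against 108, 63 and 80 (adjusted p = 0.00694). GAP43, a growth cone protein, had no count with GFP and 62, 35 and 28 counts with MAFG, at least 12.8-fold higher. Its adjusted p of 0.0194 became 0.0731 without GFP library 1, 0.0794 without GFP library 2, 0.0731 without GFP library 3 and 0.11 without MAFG library 2.

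Only 3 genes were called lower. CAVIN2 (ENSG00000168497.5, chromosome 2 from 191834310 to 191847088), a coat protein of caveolae, the small flask-shaped pits of the plasma membrane, was at 36.9, 37.1 and 35.0 CPM in the GFP libraries and at 7.80, 8.90 and 10.4 CPM in the MAFG libraries. Its log2 fold change was -2.01 (SE 0.14, adjusted p = 4.98e-05), so that CAVIN2 was 4.03-fold higher in the GFP cells by the mean CPM, and the conditions were tight and far apart. CAVIN2 was the gene called lower that kept its call with each library left out in turn.

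The other two genes called lower, ZNF723 and ZNF99, encode zinc finger proteins and lie close to each other on chromosome 19 (22832291 to 22858667 and 22752183 to 22784151 of GRCh38). ZNF723 was at 11.4, 8.73 and 9.51 CPM with GFP and at 1.43, 2.83 and 3.52 CPM with MAFG (log2 fold change -1.93, SE 0.30, adjusted p = 0.0139), and its adjusted p was 0.0796, 0.0707 and 0.0726 without GFP library 1, GFP library 3 and MAFG library 2. ZNF99 was at 2.11, 1.66 and 1.59 CPM and at 0.352, 0.238 and 0.237 CPM (log2 fold change -2.68, adjusted p = 0.037). The adjusted p of ZNF99 passed 0.05 when any library other than MAFG library 1 was left out (0.114 to 0.246). These genes are similar in sequence to their neighbours, and reads could fall unevenly among them, so their single values are uncertain.

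The neighbourhood was then described as a whole. Of 14 tested ZNF genes whose start lay within 1 Mb of either gene, 12 had a negative log2 fold change, 6 of these with no overlap of the conditions, and the median was -0.45. Over all tested genes 7902 of 15779 were negative and 12.8% did not overlap, and the 14 include ZNF723 and ZNF99, through which the neighbourhood was picked. ZNF492, also in this window, was at 24.4, 21.7 and 20.4 CPM with GFP and at 11.6, 12.8 and 13.2 CPM with MAFG (log2 fold change -0.82, adjusted p = 0.0169), and so passed the adjusted threshold without reaching a 2-fold change. ZNF43, at the edge of the window, had a log2 fold change of 0.00. The cluster was picked after its values were seen, and no test was run on it.

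The direct partners of MAFG and the targets of NRF2 did not pass the test in the upward direction. Among 10 small MAF, CNC and BACH genes with their regulator, all tested, none passed an adjusted p of 0.05 and the median log2 fold change was 0.01. MAFF was at 15.6 to 20.4 CPM in the GFP libraries and at 15.5 to 17.3 CPM in the MAFG libraries, and MAFK at 19.5 to 27.1 and 17.0 to 26.0 CPM, so both overlapped. NFE2L2 was at 58.7, 51.7 and 52.5 CPM and at 41.4, 65.8 and 73.5 CPM, with MAFG library 1 below all GFP libraries and the other MAFG libraries above all of them. NFE2L1, NFE2L3, BACH1, BACH2 and KEAP1 had adjusted p of 0.997 or more.

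NRF2 protects cells from oxidative and electrophilic stress through enzymes such as NQO1, HMOX1 and PRDX1. Of 26 tested NRF2 targets, none rose and 1 fell at an adjusted p of 0.05, against 0.0634% of all tested genes lower. The median log2 fold change of the 26 was -0.11 and 7 were positive. The gene that fell was NQO1, at 282, 282 and 260.2 CPM with GFP and at 209.6, 181 and 187 CPM with MAFG (log2 fold change -0.51, SE 0.10, adjusted p = 0.0433). Its adjusted p passed 0.05, at 0.121 to 0.271, when any library other than MAFG library 1 was left out. HMOX1 overlapped between the conditions (2.705 to 4.73 and 2.20 to 2.81 CPM), as did PRDX1 (166 to 184 and 164 to 179 CPM).

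The Melanocytic state was not measurable in full, since 13 of the 20 genes listed did not pass the filter on low counts, PMEL, MLANA, TYR and DCT among them. None of the 7 tested genes passed an adjusted p of 0.05 (median log2 fold change -0.07). MITF was at 32.1, 30.1 and 33.1 CPM with GFP and at 31.5, 36.3 and 23.1 CPM with MAFG (log2 fold change -0.07, SE 0.16), with the GFP values inside the range of the MAFG values. AXL was at a log2 fold change of -0.11 (SE 0.10, adjusted p = 0.997) and CDH2, N-cadherin, one of 0.31 (SE 0.09, adjusted p = 0.358).

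Over the 31 gene lists, 21 of 469 tested members (4.48%) were called, against 0.665% of all tested genes, and 18 lists had no member at an adjusted p of 0.05. The lists were drawn up with results of these data known, which favours a larger share, so the 2 shares are no test. The lists without any included the p53 response (15 tested, median log2 fold change -0.20), DNA replication (18 tested, -0.13), mitosis (18 tested, -0.04), the hypoxia response (16 tested, 0.07), heat shock (14 tested, -0.08), the lysosome (17 tested, -0.02) and mitochondrially encoded genes (13 tested, 0.02). The summed level of the marker lists of other cell types was 13.2 to 16.3 CPM with GFP and 14.3 to 16.2 CPM with MAFG for 7 fibroblast genes, 0.693 to 1.82 and 1.41 to 2.52 CPM for 6 endothelial genes, 61.4 to 77.6 and 70.0 to 70.8 CPM for 6 keratinocyte genes and 45.03 to 61.3 and 54.8 to 67.7 CPM for 6 leukocyte genes. A missed threshold does not show that these genes were unaffected, and with the spread described next the median SE of a log2 fold change over all tested genes was 0.18.

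The spread among the MAFG libraries was the largest of any condition in the study. edgeR's common biological coefficient of variation, fitted within each condition alone, was 20.6% for A375 cells with MAFG, 13.1% for A375 cells with GFP and 7.37% to 9.54% for the 4 conditions of the other lines. The SD between libraries of a pair, on the log2(CPM + 1) scale over 14132 genes, was 0.272 for MAFG libraries 1 and 2, 0.303 for libraries 1 and 3 and 0.192 for libraries 2 and 3, against 0.167, 0.206 and 0.198 for the GFP libraries. The median SE of 0.18 compares with 0.11 in WM164 and 0.12 in SKMel28 cells.

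MAFG library 1 stood apart from the other two. Among 13339 genes with a mean of at least 1 CPM, it was the most distant of the 3 MAFG libraries for 7374 (55.3%), and it differed by more than 1 on the log2(CPM + 1) scale from the mean of the others for 246 genes, 37 higher and 209 lower. MAFG libraries 2 and 3 did so for 47 and 89 genes, and the GFP libraries for 38 to 55. The share of counts in genes annotated as misc_RNA was 3.64% in MAFG library 1 and 1.85% to 2.50% in the other 5 libraries, while the share of mitochondrially encoded genes was 12.6% against 13.0% to 16.2%. Whether either share had a part in the spread was not tested. The range among the MAFG libraries exceeded that among the GFP libraries for 67.3% of these genes, and 512 genes ranged over more than 1 (log2) among the MAFG libraries against 176 among the GFP libraries.

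**Figure D3:**
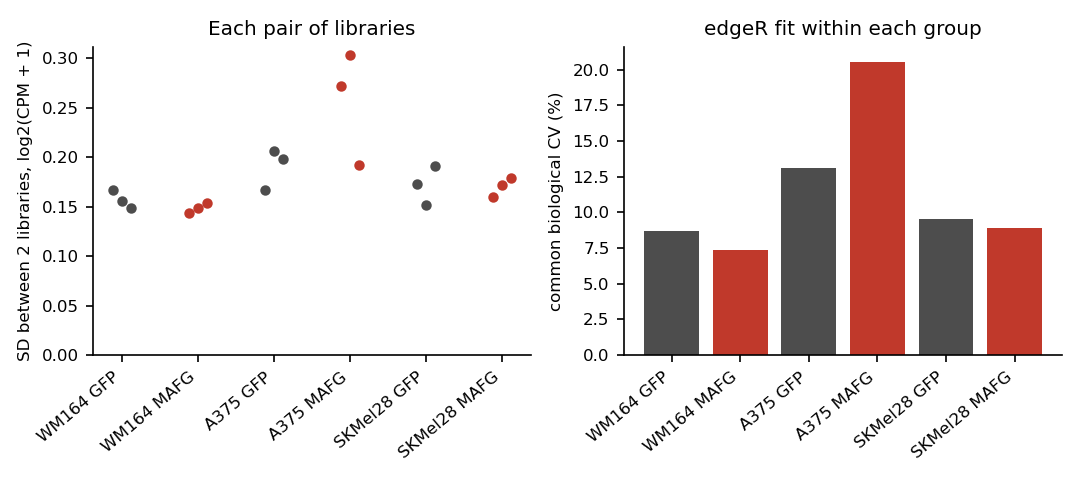
Left, SD between the libraries of each pair on the log2(CPM + 1) scale, with 3 points for each condition. Right, the common biological coefficient of variation in percent from an edgeR fit within each condition (GFP grey, MAFG red). A375 with MAFG is highest in both panels, at 20.6% on the right, and 2 of its 3 pairs, those with library 1, exceed all other pairs.

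The called genes were chosen on these same libraries, so their agreement across libraries is a description. All 102 genes called higher were above every GFP library in each MAFG library. On the log2(CPM + 1) scale the median rise over the mean of the GFP libraries was 1.43, 1.47 and 1.49 in MAFG libraries 1, 2 and 3. That scale shrinks changes at low levels, so these values are smaller than the median log2 fold change of 2.74. Library 1 was the highest of the 3 for 40 of these genes and the lowest for 37.

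The genes with the widest range among the MAFG libraries were not called genes. They included small nuclear RNA genes, which encode parts of the spliceosome, such as RNVU1-7 at 17.5, 64.4 and 55.3 CPM with GFP and at 0, 41.4 and 24.8 CPM with MAFG. RNU1-1, RNU1-3, RNU1-28P and RNVU1-18, near-identical copies of the U1 gene, shared the same counts in every library (140, 0 and 90 with GFP and 787, 122 and 14 with MAFG) and cannot be told apart here. Equal counts at separate places conflict with counting only uniquely aligned reads, as the methods describe it. How reads of such copies were counted is not known. RF00019, a Y RNA family entry, had no count with GFP and 35, 77 and 1034 counts with MAFG, and the cancer-testis gene SSX2 had 349, 218 and 179 counts against 244, 0 and 186.

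The number of called genes differed between the settings tried. Without MAFG library 1, 153 genes were called, 137 higher and 16 lower, 101 of them shared with the 105. Leaving out GFP library 1, 2 or 3 gave 63, 67 and 65 called genes, and leaving out MAFG library 2 or 3 gave 55 and 74. In total, 49 genes were called with all 6 libraries and with each library left out, 48 of them higher. DESeq2 called 173 genes, 165 higher and 8 lower, and a single edgeR model of all 18 libraries called 311, 286 higher and 25 lower.

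**Figure D4:**
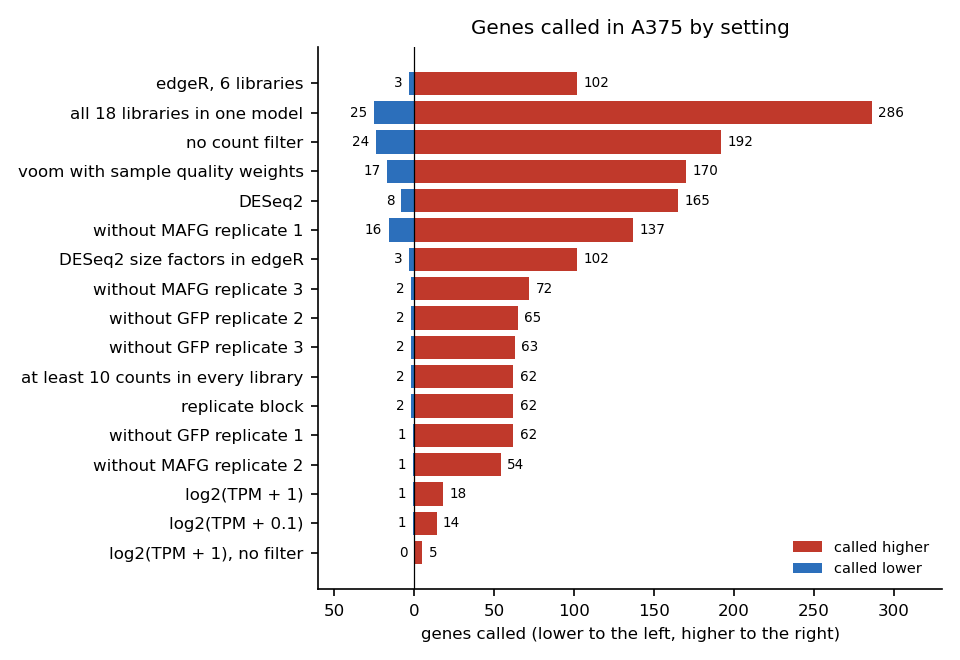
Number of genes called higher (red, to the right) and lower (blue, to the left) in A375 cells under each setting, with the edgeR fit of the 6 libraries on top (102 and 3). The count ranges from 5 on the log2(TPM + 1) scale without a filter to 311 in the model of all 18 libraries, and the genes called higher outnumber those called lower in each setting.

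The A375 response was then compared with that of the other lines. In fits of their own libraries, 786 genes were called higher (4.94%) and 319 lower (2%) in WM164 cells, and 273 higher (1.76%) and 463 lower (2.98%) in SKMel28 cells. Of the 102 genes called higher in A375, 86 were tested in WM164, where 31 were called higher and none lower, with a median log2 fold change of 0.72. These 31 were 30.4% of the A375 genes and 3.94% of the WM164 genes called higher. In SKMel28, 81 were tested, 20 were called higher and 1, A2M, lower, with a median of 0.31, and the 20 were 19.6% of the A375 genes and 7.33% of the SKMel28 genes called higher. CD74, MUC5B, PMEPA1, NES and COL9A3 were among the 9 genes called higher in all 3 lines, and 60 of the 102 were called in neither other line.

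**Figure D5:**
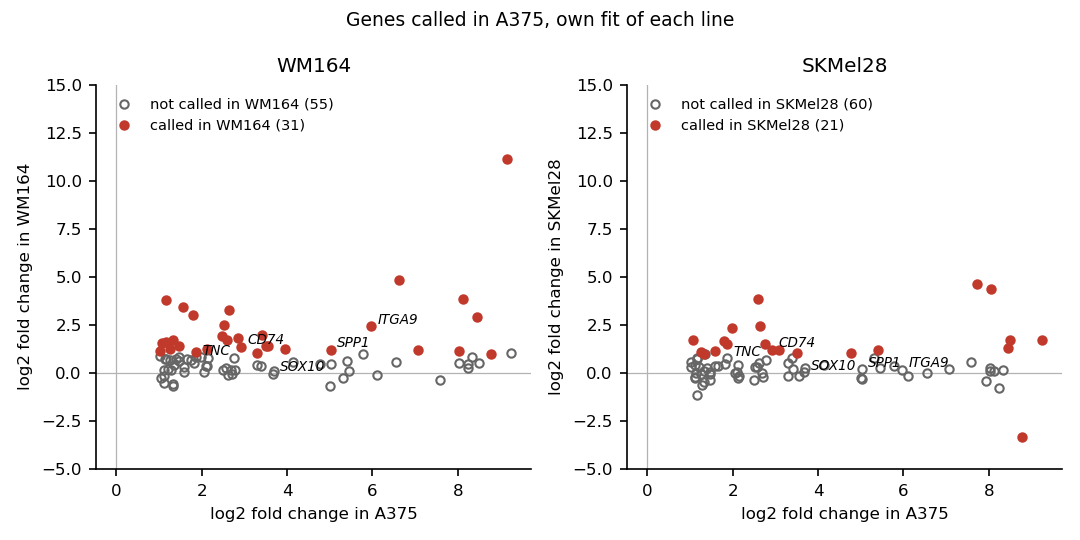
Log2 fold change in WM164 (left) and SKMel28 (right) by that in A375 for the genes called in A375 that were tested in the other line, 86 and 81 in number, each line in its own edgeR fit. Filled points were also called in the other line (31 and 21), and SOX10 lies near 0 on both y axes.

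The difference between the responses was tested as a contrast of all 18 libraries in a joint model, with thresholds unchanged. The A375 response differed from that of WM164 for 823 of 18767 genes (4.39%) and from that of SKMel28 for 788 (4.2%). Of the 102 genes called higher in A375, 58 had a larger response in A375 than in WM164 and 2 a smaller one, and 68 had a larger response than in SKMel28 and 1 a smaller one, which follows in part from their choice by the A375 change. The response of SOX10 was larger by 3.73 (log2) than in WM164 (adjusted p = 2.58e-11) and by 3.66 than in SKMel28 (adjusted p = 1.01e-10). The opposite held for AXL, whose A375 response was smaller by 3.23 and 5.34 (log2 differences of -3.23 and -5.34, adjusted p = 6.66e-11 and 2.86e-12). In CPM normalized over all 18 libraries, AXL was at 633 in A375, 3.29 in WM164 and 0.589 in SKMel28 GFP cells. With MAFG it was at 591, 28.9 and 23.0 CPM, so it stayed far higher in A375 than in the other lines.

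Many of the genes that rose in A375 were already present in GFP cells of the other lines. On the scale of CPM normalized over all 18 libraries, SOX10 was at 1369 CPM in WM164 and 892 CPM in SKMel28 GFP cells, against 8.85 CPM in A375 cells with GFP and 114 CPM with MAFG. FN1 was at 9371 and 8716 CPM against 10.01 and 22.6 CPM, and GAS7 at 479 and 185 CPM against 0.0800 and 7.90 CPM. Of the 102 genes, 67 (65.7%) were higher in WM164 GFP cells than in A375 MAFG cells, and 60 (58.8%) were higher in SKMel28 GFP cells, against 45.01% and 45.2% of all genes tested in A375. The choice of the 102 by their rise favours genes low in A375, and 54 of them averaged below 1 CPM with GFP. Genes of like level were not compared, so these shares are a description. The 3 genes CHRDL1, MEOX2 and SYTL5 stayed under 0.1 CPM in all 12 libraries of the other lines, and CAVIN2 averaged at most 0.0412 CPM there.

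The most abundant pigment cell genes of those lines were checked in the A375 libraries. DCT, which averaged 1397 CPM in WM164 and 695 CPM in SKMel28 GFP cells, had 1 count in MAFG library 1 and none in the other 5 A375 libraries. MLANA, at 332 and 510 CPM in those cells, and TYR, at 141 and 170 CPM, had no count in any A375 library, and PMEL, at 932 and 1697 CPM, had 4, 0 and 12 counts with GFP and 9, 3 and 22 with MAFG.

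Promoter sequences were read for the genes called higher to describe what they share beyond their change. The RefSeq table of promoters (GRCh38.p14, 250 bases before to 50 after the start of a gene) held 70 of the 102 genes. Each was searched on both strands for TGCTGAC and TGCTGAG, the arms of the palindrome to which MAF proteins bind, and for TGACNNNGC, the core of the antioxidant response element, which may overlap the first of these. TGCTGAC was found in 3 of the 70 promoters (4.29%) and in 4.197% of all 27305 promoters, TGCTGAG in 5 (7.14%) and 6.88%, and TGACNNNGC in 6 (8.57%) and 13.6%. Among the 10611 promoters of genes tested here the shares were 3.24%, 5.23% and 14.98%. Any of these was present in 13 of the 70 (18.6%) against 22.5% of all promoters and 21.6% of those of tested genes, and these shares are a description without a test.

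The promoters with TGCTGAC are shown around the match, with the matching letters in capitals, read 5′ to 3′ on the strand of the gene and ending at or before the start that RefSeq gives for the gene. In SPP1 and RGS16 the match is on the opposite strand and so reads GTCAGCA.
SPP1 promoter: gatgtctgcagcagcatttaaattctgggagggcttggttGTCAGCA
NREP promoter: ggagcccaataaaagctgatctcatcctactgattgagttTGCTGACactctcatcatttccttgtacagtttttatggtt
RGS16 promoter: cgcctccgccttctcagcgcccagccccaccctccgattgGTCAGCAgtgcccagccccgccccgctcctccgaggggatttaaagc
The stretches lie at chr4:87975668-87975714 (plus strand) for SPP1, chr5:111976933-111977013 (minus strand) for NREP and chr1:182604410-182604496 (minus strand) for RGS16. NREP, a neuronal regeneration protein, was at 1.10, 0.723 and 0.715 CPM with GFP and at 8.77, 10.03 and 7.96 CPM with MAFG (adjusted p = 8.66e-05), and RGS16, a regulator of G-protein signalling, at 2.08, 1.48 and 1.71 CPM and at 6.63, 4.52 and 4.36 CPM (adjusted p = 0.0306). The match in the SPP1 promoter ends at the start that RefSeq gives (87975714), which lies downstream of the GENCODE start (87975667), and a match says only that these letters are present, not that MAFG binds there.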

How the data were processed

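RNA of A375 cells overexpressing MAFG or GFP was sequenced as 3 libraries per condition. According to the methods and the submitters' processing notes, the authors trimmed reads with cutadapt 1.8.1, aligned them to GRCh38 with STAR 2.7.7a, used featureCounts to count the reads with a unique alignment in each gene, and deposited the raw counts without normalization or pooling. The notes also list RSEM 1.3.0, and the deposited TPM values were normalized by the authors for gene length and depth. Neither the annotation release nor the strand setting of the counting is given in the sources used here, and the methods name a stranded kit where the labels name one without strand, so values of genes with a partner on the opposite strand (SOX10, TIMP3, TNC, PMEPA1, MMP2, CIITA and CAVIN2 among others) are uncertain. Positions and overlaps come from GENCODE release 44, which held 99.4% of the gene identifiers.

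The 6 libraries were fitted with R 4.3.3 and edgeR 4.0.16 (filterByExpr, TMM, quasi-likelihood test, Benjamini-Hochberg adjustment). Differences between lines were contrasts in a model of 6 conditions over 18 libraries. The SE was taken as the size of the log2 fold change over the root of the F statistic. Alternatives used DESeq2 1.42.0, limma 3.58.1 (voom with sample weights, or log2(TPM + 1) and log2(TPM + 0.1) of genes with at least 1 TPM in 3 libraries), other filters, the replicate block and each library left out. The steps were tested on simulated data at the depth and spread of the A375 libraries. There edgeR recovered 100 of 100 genes changed by 2 and 96 of 100 changed by 1.5 on the log2 scale, with 8 false calls among 15368 genes. The changed genes were drawn from well-counted genes, and each gene had the same spread in both conditions. Recovery was therefore not measured for genes low in GFP cells, such as the 54 called higher from a mean below 1 CPM. The wider spread of the MAFG libraries was not simulated either. Intervals and floors (3 counts) cover counting error only. With 3 libraries against 3, a permutation test of a single gene cannot give a p below 0.1, so none was used.

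The members, the gene lists and the rule for named genes were chosen with earlier results of these data known. Named were MAFG with its partners and genes that the study names, the 15 genes called higher with the smallest adjusted p, the 10 with the largest fold change at 2 CPM or more in MAFG cells, all genes called lower, all called members of the lists, the 8 genes at 5 CPM or more with the widest range among the MAFG libraries, and the called genes with the highest levels. MIA, CADM1, SERPINE2, LAMA4, PLAT, SPRY4, ITGB8, ZNF492, ZNF43, CHRDL1, NREP, RGS16 and overlapping genes are named outside that rule and were chosen after their values were seen. The drawings were made with matplotlib 3.10.9.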

Additional observations from a re-analysis of the deposited data

Results flagged for a closer look

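For 22 of the named genes the response to MAFG in A375 cells differed from that in both other lines, by contrasts in the model of all 18 libraries (edgeR, adjusted p from 8.69e-13 for GAS7 against SKMel28 to 0.0239 for RF00019 against WM164). Differences are given on the log2 scale, A375 minus WM164 first and A375 minus SKMel28 second. Fitted values of genes without a count in A375 GFP cells (THBS2, A2M and RF00019) depend on the prior count and are no bounds.

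The response was smaller in A375 for AXL (-3.23 and -5.34) and NGFR (-2.52 and -3.32). In WM164 and SKMel28 cells themselves, the log2 fold change of AXL was 3.13 and 5.25, and that of NGFR 1.74 and 2.54. AXL rose there from 3.29 and 0.589 CPM in GFP cells, against 633 CPM in A375 GFP cells.

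The response was larger in A375 for the neural crest genes SOX10 (3.73 and 3.66), ERBB3 (2.31 and 2.29) and RXRG (4.80 and 4.21). Among matrix genes, integrins and protease inhibitors it was larger for SPP1 (3.81 and 4.84), TNC (1.08 and 1.10), COL19A1 (5.80 and 6.79), HMCN1 (5.32 and 5.20), THBS2 (7.93 and 7.28), ITGA9 (3.54 and 5.80), ITGB3 (4.59 and 5.36) and A2M (7.50 and 11.86). The same held for CD74 (1.57 and 1.71) and CIITA (2.60 and 2.10) of the class II pathway and for the transcription factors SOX5 (1.72 and 2.07), MAF (3.57 and 3.73) and EGR3 (4.30 and 3.73). PMEPA1 (2.08 and 2.46), GAS7 (5.98 and 6.56) and C10orf90 (6.20 and 6.25) completed the protein-coding genes. RF00019 (17.00 and 18.58) was not called in A375 itself and had most of its counts in MAFG library 3. Genes chosen for their rise in A375 are favoured in this comparison.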

How the results depend on the processing

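With 3 libraries per condition and a wide spread among the MAFG libraries, 28 genes passed the adjusted p with a change below 2-fold, and the number of called genes differed between settings. Against 105 called genes (102 higher, 3 lower, 133 at an adjusted p of 0.05), DESeq2 gave 173 (165, 8 and 248), the model of all 18 libraries 311 (286, 25 and 506), voom with sample weights 187 (170, 17 and 325), no count filter 216 (192, 24 and 328), and at least 10 counts in every library 64 (62, 2 and 84). On TPM scales limma called 19 on log2(TPM + 1) (18, 1 and 19), 15 on log2(TPM + 0.1) (14, 1 and 15) and 5 on log2(TPM + 1) without a filter (5, 0 and 5), where 688 of the 1170 genes at an unadjusted p under 0.05 were lower. Of the 105 called genes, 55 were tested on log2(TPM + 1) with the filter, where all 55 kept their direction and 16 were called. FN1, IGFBP5, PRRX1, SFRP1, MUC5B, COL9A3, ZNF723 and TNC (adjusted p = 0.0515, limma) were among those not called there. DESeq2 size factors in edgeR left 105. The TPM scales moved the median of all genes by -0.10 and -0.12. The share of called genes that were higher was 88.9% without a count filter, 89.5% without MAFG library 1 and 97.1% in the fit reported. The cause of these differences was not tested.

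Leaving out 1 library gave 55 to 153 called genes, 54 to 137 higher, 1 to 16 lower and 59 to 393 at an adjusted p of 0.05. The numbers of the libraries did not pair them, since same-numbered libraries had correlations of deviations of -0.185, 0.050 and -0.210, and not every library correlated best with its own number. The replicate block gave 64 called genes (62 higher, 2 lower), 64 at an adjusted p of 0.05, and an adjusted p of 0.252 for MAFG (log2 fold change 0.80).

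MAFG passed the threshold with DESeq2 (0.80), the model of all 18 libraries (0.81), no count filter (0.80), voom (0.83), log2(TPM + 0.1) (2.55) and log2(TPM + 1) with or without a filter (2.33), and ranged from 0.69 to 0.97 with 1 library left out. With at least 10 counts in every library, the A375 response was above that of WM164 for 187 genes and below it for 188, against 408 and 415 in the fit reported, and above that of SKMel28 for 277 and below it for 89, against 580 and 208, so that the number of differences fell in both comparisons by more than the 1.5-fold limit used for counts. As a share of the genes then tested these were 3.15% and 3.07%, against 4.39% and 4.2%.

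Of 938 values of 63 named genes under the alternatives, 802 kept their side of the threshold, 92 lost it, 23 gained it and 21 changed sign, 0 of these in the 38 called genes. NFE2L1 turned to 0.0045 in the model of all 18 libraries and 0.0024 with at least 10 counts, and ranged from -0.090 to 0.058 with 1 library left out. The same ranges were -0.020 to 0.36 for NFE2L2, -0.064 to 0.11 for NFE2L3, -0.65 to 0.48 for BACH2, -0.17 to 0.020 for KEAP1 and -0.22 to 0.091 for MITF. They were -0.20 to 2.60 for RNVU1-18, RNU1-28P, RNU1-1 and RNU1-3, negative without MAFG library 1. NFE2L3 was -0.11 on log2(TPM + 0.1), -0.10 on log2(TPM + 1) with or without a filter and -0.039 with voom, and BACH2 was -0.058 with the replicate block. Of 496 list medians, 410 moved by less than the spread between libraries and 86 by more.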

Other observations

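Some well-expressed genes passed an adjusted p of 0.05 with a change below 2-fold, and those named here were chosen after their values were seen. SERPINE2, a secreted protease inhibitor, was at 125, 124 and 116 CPM in the GFP libraries and at 197, 199 and 193 CPM in the MAFG libraries (log2 fold change 0.69, adjusted p = 0.00532). LAMA4, a laminin chain, was at 43.2, 39.8 and 41.9 CPM and at 67.0, 79.1 and 67.6 CPM (adjusted p = 0.00867). ALDH1A3, an enzyme of retinoic acid synthesis, was at 54.9, 62.8 and 58.5 CPM and at 103, 98.9 and 103 CPM (adjusted p = 0.00424). The MAFG libraries were above the GFP libraries for all 3 genes.

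PTX3, a secreted pattern recognition protein, was at 124, 131 and 136 CPM with GFP and at 89.3, 85.1 and 84.5 CPM with MAFG (log2 fold change -0.59, adjusted p = 0.0182). TNFRSF21, a death receptor, was at 46.8, 47.5 and 51.2 CPM and at 33.6, 30.8 and 32.8 CPM (adjusted p = 0.0363). TCF7L1, a transcription factor of the WNT pathway, was at 13.6, 14.2 and 12.1 CPM and at 7.45, 7.17 and 7.33 CPM (adjusted p = 0.0216). NNMT, a nicotinamide methyltransferase, was at 30.0, 32.4 and 37.4 CPM and at 22.7, 15.2 and 15.8 CPM (adjusted p = 0.0436), with its MAFG library 1 nearer to the GFP libraries than the other MAFG libraries were. All p-values are from edgeR's quasi-likelihood test.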
